A study of Homo sapiens with 6 samples.

Results

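The SR protein and hnRNP genes examined here were the rows of the count table whose symbol is SRSF followed by digits or begins with HNRNP. This rule took 37 of 19470 genes, 12 named SRSF and 25 named HNRNP. RNA was sequenced from HCCC9810 cells, an established human CCA line carrying no engineered change according to its labels, after 24 h with vehicle (DMSO) or with 20 μM ILL, a plant sesquiterpene lactone. There were 3 libraries per group, from 1 cell line, 1 dose and 1 time point, and the comparison asks how ILL changed the transcripts of these splicing regulators. The labels do not say that the libraries came from separate cultures, so p-values measure only the spread between these libraries, which may be technical.

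SR proteins carry RNA recognition motifs and a tail rich in arginine-serine dipeptides. They bind exonic enhancer sequences, recruit the spliceosome to nearby splice sites, and are moved and switched by SRPK, CLK and DYRK kinases that phosphorylate the tail. hnRNPs coat nascent transcripts through RNA recognition, KH or glycine-rich domains and often oppose SR proteins at exons, besides acting in mRNA export, stability and translation. Many genes of both families limit their own expression by splicing in a poison exon, which sends the transcript to nonsense-mediated decay (NMD). The counts analysed here are totals per gene, so they do not separate productive from NMD-targeted transcripts.

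The stretches upstream of 5 genes are shown because these genes span the response: HNRNPAB, HNRNPC and SRSF7 fell strongly, SRSF5 did not pass the test, and SRSF8 was the one member that rose. The genes were picked after their values were seen. Each sequence holds the 120 bases before a RefSeq transcription start on GRCh38.p14, read 5′ to 3′ along the gene's own strand. Capitals mark the letters of the motifs searched, on either strand.
HNRNPAB, chr5:178204413-178204532, plus strand: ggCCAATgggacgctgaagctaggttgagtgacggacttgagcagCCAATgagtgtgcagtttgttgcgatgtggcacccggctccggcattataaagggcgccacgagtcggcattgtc
HNRNPC, chr14:21269443-21269562, minus strand: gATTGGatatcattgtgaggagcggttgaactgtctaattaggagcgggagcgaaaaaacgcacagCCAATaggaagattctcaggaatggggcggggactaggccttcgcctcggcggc
SRSF7, chr2:38751362-38751481, minus strand: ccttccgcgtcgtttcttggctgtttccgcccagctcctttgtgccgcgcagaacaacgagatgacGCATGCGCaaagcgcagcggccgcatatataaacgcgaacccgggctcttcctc
SRSF5, chr14:69767022-69767141, plus strand: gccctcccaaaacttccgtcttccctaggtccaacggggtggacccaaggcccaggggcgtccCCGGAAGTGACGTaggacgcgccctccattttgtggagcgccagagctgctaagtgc
SRSF8, chr11:95066757-95066876, plus strand: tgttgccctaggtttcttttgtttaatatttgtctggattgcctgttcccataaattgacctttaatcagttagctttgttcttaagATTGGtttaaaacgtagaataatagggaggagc
HNRNPAB and HNRNPC each held 2 copies of CCAAT, or its complement ATTGG, in the bases printed. The SRSF7 stretch held 1 copy of GCATGCGC, the core of the NRF1 element, and SRSF5 held CCGGAAG, an ETS-type sequence, directly followed by TGACGT, one arm of a cAMP response element. The SRSF8 stretch held 1 ATTGG. SRSF7 and SRSF8 each have 2 windows in the RefSeq table, and 1 of each is printed. The other SRSF7 window held none of the motifs in its 300 bases, and the other SRSF8 window overlaps the one shown and holds the same ATTGG.

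Windows from 250 bases before to 50 bases after the start matched 34 of the 37 genes, with 48 windows in all. CCAAT was present in 62.1% of the 29 tested members with a window, against 42.9% of all 10482 tested genes with one. By window, it was found in 61.8% of the HNRNP windows, 21.4% of the SRSF windows and 34.6% of all 35116 windows. The hnRNP windows thus carried it more often than the SR protein windows, which was not tested. The E-box CACGTG was in 20.7% of tested members and 12.3% of tested genes, with no match in the 14 SRSF windows. CCGGAAG stood at 17.2% and 22.1%, TGACGT at 17.2% and 13.7%, GCATGCGC at 10.3% and 6.12%, and TTTGGCGC, TTTCCCGC or TTTCGCGC, the E2F-type sequences, at 10.3% and 5.57%. A match describes letters only.

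The libraries held between 34282764 and 37758569 counts. Among the cholangiocyte and epithelial markers, 8 had a mean of at least 1 CPM, the counts scaled to a common library size, led by KRT7, KRT8, KRT18 and KRT19, whereas CFTR had no counts. Their summed level was 9051 to 9294 CPM in control and 9532 to 10122 CPM with ILL. The 12 markers of blood, stromal, endothelial and hepatic cells summed to 53.6 to 62.7 CPM in control and 135.4 to 144.5 CPM with ILL, mostly through CD68, a lysosomal protein, which had a mean of 37.8 CPM in control and 113.1 CPM with ILL. PTPRC, CD3E and CYP3A4 were at or near 0. The part of these marker changes in the results below was not tested.

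Most of these genes are strongly expressed in HCCC9810 cells. In control libraries, 21 of the 37 lay above 90% of tested genes by FPKM, a scale that divides counts by gene length and library total. HNRNPA2B1 was highest at 321.9 ± 4.45 FPKM (SD, n = 3), followed by HNRNPAB at 235.4 ± 9.75, HNRNPK at 225.9 ± 3.15 and HNRNPA1 at 224.8 ± 3.51. The last 3 lie within about 1 SD of each other and their order is not resolved. Among SR proteins, SRSF2 led at 216.3 ± 6.04 FPKM (SD, n = 3), well above SRSF9 at 105.9 ± 2.16 and SRSF5 at 94.5 ± 4.22.

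**Figure D1:**
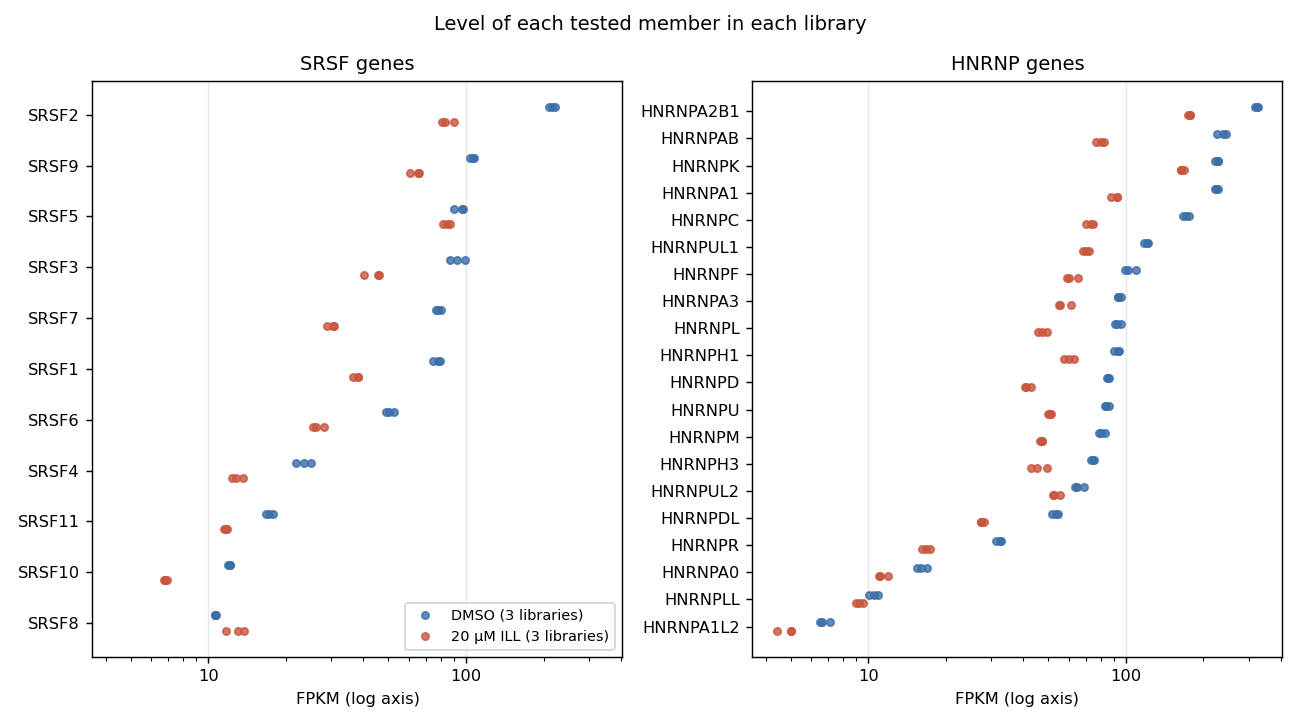
Points show the FPKM of each of the 31 tested members in each library, on a log axis, with SRSF genes on the left and HNRNP genes on the right, ordered by control mean. Blue points are the 3 DMSO libraries and red points the 3 ILL libraries, and the red points lie to the left of the blue for all members except SRSF8, where they lie to the right, SRSF5 having its ILL libraries at 81.3 to 86.8 FPKM and its control libraries at 89.6 to 97.2.

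The 6 untested genes had too few counts for the fit. HNRNPCL1, HNRNPCL2, HNRNPCL3 and HNRNPCL4, germline copies related to HNRNPC, had 0 counts in every library, which allows up to 3 counts, or 0.0773 to 0.0872 CPM per library, for counting error only. SRSF12 had 1, 7 and 0 counts in control replicates 1 to 3 and 10, 8 and 8 counts with ILL. HNRNPH2 had 1, 3 and 2 counts in control and 0, 1 and 1 with ILL, and this level is uncertain: 16.3% of its exon bases are shared with the read-through gene RPL36A-HNRNPH2, itself at 0 counts, and how reads on shared exons were assigned is not given in the sources used here.

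Both families were lower with ILL as a whole. The summed SRSF level was 2309, 2389 and 2278 CPM in control and 1305, 1286 and 1331 CPM with ILL. The summed HNRNP level was 7961, 8035 and 8102 CPM in control and 4689, 4707 and 4668 CPM with ILL. ILL libraries lay below every control library in both sums, at 56.2% and 58.4% of the control mean. The exact permutation test, two-sided, gave p = 0.1 for each sum, the smallest that 3 against 3 libraries allow. HNRNP transcripts took 0.819% to 0.826% of all counts in control and 0.456% to 0.46% with ILL. In these bulk libraries, fewer cells with high levels and less of the transcript per cell cannot be told apart, and every level is a share of its library, not an amount per cell.

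Of the 31 genes that passed the filter on low counts, 28 fell at an adjusted p under 0.05 (edgeR's quasi-likelihood test with Benjamini-Hochberg adjustment over 13066 genes). Over all tested genes, 36.9% were lower and 36.2% higher by the same rule. Of the SRSF genes, 9 of 11 fell, SRSF8 rose and SRSF5 did not pass. Of the HNRNP genes, 19 of 20 fell, none rose, and HNRNPLL did not pass, with a log2 fold change of -0.11 (SE 0.065, unadjusted p = 1.0e-01, adjusted p = 0.129 in edgeR). With library size as the sole scaling, all 20 were lower. The median log2 fold change was -0.79 for SRSF genes and -0.70 for HNRNP genes, beside -0.0012 for all tested genes. In 29 members all ILL libraries lay below all control libraries, which held for 38.0% of tested genes. DEGs, with a fold change above 2 or under 0.5 as well, numbered 6, all lower, beside 11.4% of tested genes called lower DEGs and 12.5% called higher DEGs. They were SRSF2, SRSF3, SRSF7, HNRNPA1, HNRNPAB and HNRNPC. The falls were moderate in size: 23 of the 31 lay below the 25th percentile of all tested genes, -0.51, and 0 below the 5th percentile, -1.65.

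**Figure D2:**
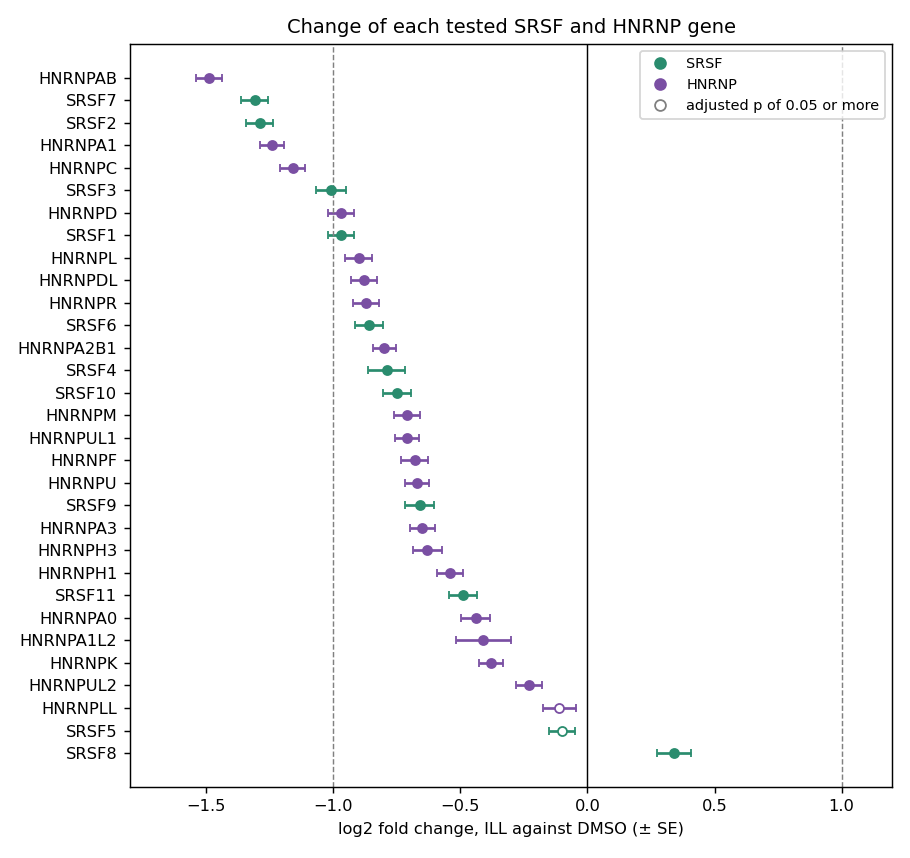
Points give the log2 fold change of each tested member between ILL and DMSO with its standard error as bars, ordered from the largest fall at the top. Filled points passed an adjusted p of 0.05 in edgeR, open points did not, dashed lines mark a 2-fold change, and values run from -1.49 in HNRNPAB to 0.34 in SRSF8.

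The steepest falls among the SR genes were those of SRSF7, SRSF2, SRSF3 and SRSF1. SRSF7, a zinc-knuckle SR protein that couples splicing to mRNA export, had 221.8, 231.6 and 227.0 CPM in control and 92.8, 88.3 and 94.2 CPM with ILL. The libraries of the groups were far apart, and the log2 fold change was -1.31 (SE 0.053, adjusted p = 6.6e-17 in edgeR). SRSF2, which stays in the nucleus and marks nuclear speckles, fell from 407.9, 398.9 and 389.3 CPM to 155.0, 161.3 and 174.5 CPM. Its log2 fold change was -1.29 (SE 0.053, adjusted p = 1.0e-16 in edgeR). On the opposite strand, 36.7% of the 3017 annotated exon bases of SRSF2 overlap MFSD11, whose own log2 fold change was 0.16 (adjusted p = 0.0847 in edgeR). The gene length behind the FPKM of SRSF2 was 1888 bases, so the overlap of its counted bases is not known. Whether the counting used strand is not given in the sources used here.

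SRSF3, the smallest SR protein and a partner of the export factor NXF1, had 380.0, 411.0 and 359.2 CPM in control. With ILL it had 195.4, 175.4 and 200.3 CPM, a log2 fold change of -1.01 (SE 0.059, adjusted p = 8.9e-14 in edgeR), which lies at the DEG cutoff. Its DEG call was lost without control replicate 2 (-0.96), without ILL replicate 2 (-0.95), with DESeq2's size factors and with at least 10 counts required in every library. SRSF1, the founding member of the family and a shuttling splicing activator, had 420.0, 430.2 and 406.0 CPM in control and 216.0, 218.1 and 207.1 CPM with ILL. Its fold change was almost as large, at 1.96-fold lower (adjusted p = 7.4e-15 in edgeR), just short of the DEG cutoff, which it passed with library size as the sole scaling (-1.04). SRSF3 and SRSF1 thus differ in the DEG call while their log2 fold changes, -1.01 and -0.97, lie within 1 SE of each other.

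The other SR genes fell less. SRSF4 and SRSF6, long SR proteins with extended arginine-serine tails, had log2 fold changes of -0.79 and -0.86. SRSF10, whose dephosphorylated form represses splicing during heat shock, fell from 127.7 to 129.8 CPM in control to 75.7 to 77.9 CPM with ILL, a log2 fold change of -0.75 (SE 0.054, adjusted p = 5.6e-12 in edgeR). SRSF9, a short-tailed relative of SRSF1, fell from 119.9, 116.3 and 121.3 CPM to 77.1, 77.2 and 71.7 CPM. Its log2 fold change was -0.66 (SE 0.056, adjusted p = 1.4e-10 in edgeR). Of its 3744 annotated exon bases, 46.2% overlap GATC on the opposite strand, a gene with a log2 fold change of 0.05 (adjusted p = 0.523 in edgeR). The gene length behind the FPKM of SRSF9 was 1152 bases, so the overlap of its counted bases is not known. SRSF11 fell by 0.49 on the log2 scale (SE 0.055, adjusted p = 1.7e-08 in edgeR).

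SRSF5 and SRSF8 departed from the rest of the SR family. SRSF5, a shuttling SR protein encoded on chromosome 14, had 210.6, 229.2 and 229.2 CPM in control and 208.0, 202.6 and 214.8 CPM with ILL. The groups overlapped in these scaled counts, and its log2 fold change was -0.10 (SE 0.052, adjusted p = 0.0987 in edgeR), a range of -0.20 to 0.01 at 2 SE on either side. Scaling by library size alone made it -0.17 (adjusted p = 0.00597 in edgeR). SRSF8, a gene closely related to SRSF2, had 44.4, 44.7 and 45.3 CPM in control and 60.6, 52.0 and 57.7 CPM with ILL. All ILL libraries were above all control libraries, and its log2 fold change was 0.34 (SE 0.067, adjusted p = 8.1e-05 in edgeR). SRSF8 was nonetheless a minor transcript, at 10.7 FPKM in control and 12.9 FPKM with ILL.

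The make-up of the SR protein transcript pool shifted accordingly. By summed FPKM, SRSF2 made up 27.8% ± 0.699 (SD, n = 3) of the SRSF total in control and 20.4% ± 0.95 with ILL. SRSF5 went the other way, from 12.1% ± 0.565 to 20.3% ± 0.254, so that by FPKM it stood level with SRSF2 in treated cells. SRSF8 went from 1.37% ± 0.0308 to 3.10% ± 0.221. By counts, without division by length, SRSF2 went from 17.2% to 12.5% and SRSF5 from 9.59% to 15.9%. SRSF1 had the largest share of counts in both groups, at 18.0% and 16.4%. These shares are descriptions without a test and sum to the whole of the family, so one share cannot move without another.

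The A/B-type hnRNPs, which carry paired RNA recognition motifs and a glycine-rich tail, held both the deepest and some of the mildest falls. HNRNPAB, which binds single-stranded nucleic acids in transcription and mRNA transport, had 420.0, 410.0 and 390.6 CPM in control and 144.4, 139.2 and 149.5 CPM with ILL. It fell 2.82-fold, a log2 fold change of -1.49 (SE 0.052, adjusted p = 3.0e-18 in edgeR), the largest among the members. PHYKPL, which overlaps 9.14% of its annotated exon bases on the opposite strand, moved the other way with a log2 fold change of 1.78. HNRNPA1, a splicing silencer that antagonizes SRSF1 at many exons, fell from 806.6, 819.2 and 839.7 CPM to 352.5, 356.5 and 337.4 CPM. Its log2 fold change was -1.24 (SE 0.048, adjusted p = 2.6e-17 in edgeR).

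HNRNPA2B1, which also reads sorting signals in transported RNAs, stayed the most abundant member in both groups by FPKM. It had 1133.7, 1151.8 and 1176.2 CPM in control and 664.0, 668.6 and 653.3 CPM with ILL, a log2 fold change of -0.80 (SE 0.045, adjusted p = 5.5e-14 in edgeR). HNRNPA0, a single-exon gene whose protein binds AU-rich mRNAs, fell by 0.44 on the log2 scale (SE 0.057, adjusted p = 1.9e-07 in edgeR), from 131.5 to 144.5 CPM in control to 97.2 to 106.7 CPM with ILL. HNRNPA1L2, an intronless copy of HNRNPA1, had 14.6, 14.9 and 16.0 CPM in control and 11.8, 11.9 and 10.4 CPM with ILL. Its log2 fold change was -0.41 (SE 0.109, adjusted p = 0.00154 in edgeR), and its counts are uncertain, since reads of near-identical copies can be split. GENCODE names 74 pseudogenes after HNRNPA1, 16 after HNRNPA3 and 9 after HNRNPC, and 0 of the pseudogenes named after members are in the count table.

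Among the other hnRNPs, HNRNPC, a tetramer-forming protein that binds uridine tracts and keeps Alu elements out of mRNA, had 744.1, 768.1 and 733.1 CPM in control. With ILL it had 335.5, 323.2 and 342.8 CPM, a log2 fold change of -1.16 (SE 0.048, adjusted p = 1.0e-16 in edgeR). HNRNPD, also called AUF1, which binds AU-rich elements and speeds or slows mRNA decay, fell from 254.7, 258.2 and 254.9 CPM to 127.6, 136.0 and 128.1 CPM. Its log2 fold change was -0.97 (SE 0.051, adjusted p = 1.3e-14 in edgeR).

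The KH-domain protein HNRNPK, which binds cytosine-rich DNA and RNA, was among the least affected. Its control libraries had 675.6, 677.7 and 665.5 CPM and its ILL libraries 520.3, 513.2 and 513.1 CPM, a log2 fold change of -0.38 (SE 0.046, adjusted p = 5.4e-08 in edgeR). HNRNPUL2, a relative of the nuclear scaffold protein HNRNPU with a part in DNA end resection, had 322.9, 327.5 and 352.4 CPM in control and 278.2, 298.4 and 279.2 CPM with ILL. Its log2 fold change was -0.23 (SE 0.052, adjusted p = 3.7e-04 in edgeR), the smallest fall that passed. The remaining HNRNPL, HNRNPDL, HNRNPR, HNRNPM, HNRNPUL1, HNRNPF, HNRNPU, HNRNPA3, HNRNPH3 and HNRNPH1 all fell, with log2 fold changes between -0.90 and -0.54. HNRNPU shares 15.6% of its 22512 annotated exon bases with COX20 on the opposite strand, which had a log2 fold change of 0.12 (adjusted p = 0.157 in edgeR). The gene length behind the FPKM of HNRNPU was 6867 bases, so the overlap of its counted bases is not known.

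To compare relatives without regard to library scaling, the ratio of their counts was taken within each library for 14 pairs. ILL libraries lay below control in 6 pairs, above it in 4, and overlapped control in 4. The groups were barely apart in HNRNPH1 over HNRNPH3 and HNRNPD over HNRNPDL. Their differences in log2 ratio were 0.09 (SE 0.0523) and -0.1 (SE 0.0393). Exact permutation p-values, two-sided, ranged from 0.1 to 0.5 and were at least 0.14 after Benjamini-Hochberg adjustment over the pairs, so none passed, as 3 against 3 libraries cannot go below 0.1. SRSF2 to SRSF8 changed most, from ratios of 9.18, 8.92 and 8.60 in control to 2.56, 3.10 and 3.03 with ILL, a difference in log2 ratio of -1.62 (SE 0.0911). Next came HNRNPL, which binds CA repeats, over its paralog HNRNPLL, known for CD45 splicing in lymphocytes. This ratio was 4.75, 4.84 and 5.04 in control and 2.64, 3.02 and 2.82 with ILL.

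SRSF5 over SRSF6 went from near parity, at 0.989, 1.03 and 1.10, to 1.83, 1.72 and 1.71. HNRNPA1 over HNRNPA2B1 was tight, at 0.712, 0.711 and 0.714 in control and 0.531, 0.533 and 0.516 with ILL. HNRNPD over HNRNPAB had a difference in log2 ratio of 0.52, HNRNPUL1 over HNRNPUL2 of -0.48, SRSF1 over SRSF9 of -0.31 and SRSF3 over SRSF7 of 0.30. In these pairs the ratios of the ILL libraries did not overlap those of control, though none passed the test. By contrast, HNRNPU over HNRNPUL1 differed by 0.04 (SE 0.0331) and SRSF4 over SRSF6 by 0.07 (SE 0.0752), with overlapping groups. HNRNPH1 over HNRNPF, the G-tract binders, differed by 0.14 (SE 0.0895), and HNRNPA0 over HNRNPA3 by 0.21 (SE 0.0915), again with overlap.

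**Figure D3:**
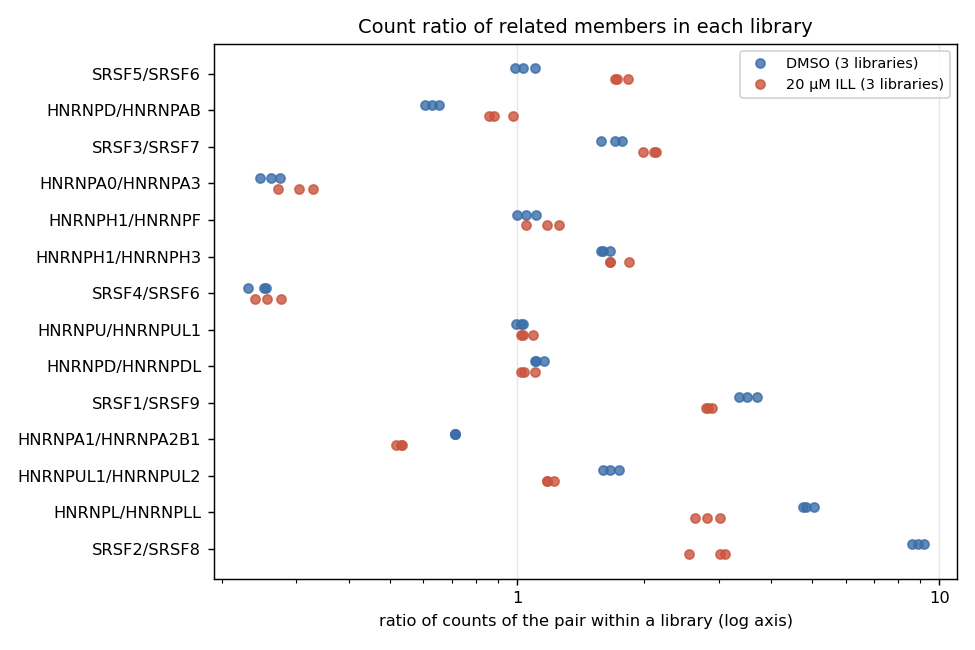
Points show, on a log axis, the count ratio of each of 14 pairs of related members in each library, blue for the 3 DMSO libraries and red for the 3 ILL libraries. SRSF2/SRSF8 shows the widest gap, with 8.60 to 9.18 in control against 2.56 to 3.10 with ILL, whereas HNRNPU/HNRNPUL1 overlaps.

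What the members shared beyond their names was examined in the annotation. All 11 tested SRSF genes have a GENCODE transcript annotated as an NMD target, as do 13 of 20 tested HNRNP genes, or 65.0%, beside 42.3% of the 12794 tested genes with an entry. Annotated retained-intron transcripts were present in 72.7% of the SRSF genes, 70.0% of the HNRNP genes and 57.5% of tested genes. The median number of annotated transcripts per gene was 9.0, 11.5 and 8.0 in the same order. These shares were not adjusted for that number. SRSF8 and SRSF5 each have 1 annotated NMD transcript, as do SRSF6 and SRSF9, which fell. The other tested SRSF genes have 2 to 6. The part of NMD in these changes was not tested. Across the 31 tested members, the log2 fold change had a Pearson r of -0.55 and a Spearman rho of -0.41 with the log2 control FPKM, the more abundant transcripts tending to fall further. This is a description across genes that share libraries, and the control level enters both quantities. With gene length the values were 0.20 and 0.17, and with the number of annotated NMD transcripts -0.20 and -0.33.

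Genes that act on SR proteins and hnRNPs were examined next. Of 12 tested genes for SR protein kinases, a phosphatase, the cyclophilin PPIG and the import receptor TNPO3, 3 rose and 5 (41.7%) fell, beside 36.2% and 36.9% of all tested genes that did so, with a median log2 fold change of -0.08. SRPK1, the main cytoplasmic SR kinase, had 158.0, 162.6 and 157.6 CPM in control and 111.7, 113.6 and 108.1 CPM with ILL, a log2 fold change of -0.52 (SE 0.052, adjusted p = 2.9e-09 in edgeR). PPIG, which has an arginine-serine tail, fell by 0.63 on the log2 scale. CLK1, the nuclear kinase that releases SR proteins from speckles, rose from 51.0, 53.3 and 49.3 CPM to 68.7, 62.4 and 66.3 CPM, a log2 fold change of 0.36 (SE 0.064, adjusted p = 1.9e-05 in edgeR). DYRK1B, a kinase linked to quiescence, rose from 3.37, 2.70 and 3.76 CPM to 14.6, 19.0 and 15.2 CPM, a log2 fold change of 2.31 (SE 0.15, adjusted p = 7.7e-13 in edgeR).

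The next list held arginine methyltransferases, the PRMT5 partners WDR77 and CLNS1A, and import receptors of hnRNPs. Of its 12 tested genes, 11 fell and 1 rose, or 91.7% and 8.33%, with a median log2 fold change of -0.82. Over all tested genes, 36.9% fell and 36.2% rose. PRMT3 and PRMT6 had log2 fold changes of -1.14 and -1.09, while PRMT2 rose by 0.37 and TNPO1, the receptor that imports HNRNPA1, fell by only 0.15. All 4 values passed the test. Of 23 tested hnRNP-type proteins with other symbols, 19 fell and 1 rose, or 82.6% and 4.35%, with a median of -0.64. RBMX, known as hnRNP G, fell from 252.6, 257.4 and 254.7 CPM to 104.4, 98.3 and 103.3 CPM, and ILF2 had a log2 fold change of -1.02. The Musashi protein MSI2 rose by 0.54, and PCBP2 fell by 0.24.

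Of 25 SR-related regulators, 19 (76.0%) fell, 0 rose and 6 did not pass, with a median log2 fold change of -0.52. The shares over all tested genes were 36.9% lower and 36.2% higher. PNN and TRA2B, a sequence-specific splicing activator, had log2 fold changes of -1.03 and -1.02, and SCAF1 had the smallest fall that passed, -0.21, next to SFSWAP at -0.27. U2AF1 is uncertain in this list, with 23, 12 and 476 counts in control and 157, 12 and 20 counts with ILL. A near-identical copy of it can split reads, and whether this lies behind the spread was not tested. Core spliceosomal snRNP proteins fell in 31 of 35 genes (88.6%) with 0 higher and a median of -0.74, beside -0.79 and -0.70 for the SRSF and HNRNP genes. The Sm proteins SNRPD1 and SNRPF had log2 fold changes of -1.39 and -1.38, and SF3B2 and SNRNP200 had -0.32 and -0.35.

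Of 15 NMD factors, 9 fell and 2 rose, or 60.0% and 13.3%, beside 36.9% and 36.2% of all tested genes, and the median log2 fold change was -0.23. MAGOHB, an exon junction protein, fell from 50.5, 50.8 and 43.1 CPM to 22.2, 23.6 and 26.5 CPM, and its paralog MAGOH had a log2 fold change of -0.95. SMG6, the endonuclease of the pathway, rose by 0.51, and SMG5 by 0.17. These lists are given by their counts and medians, and no difference between lists was tested.

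**Figure D4:**
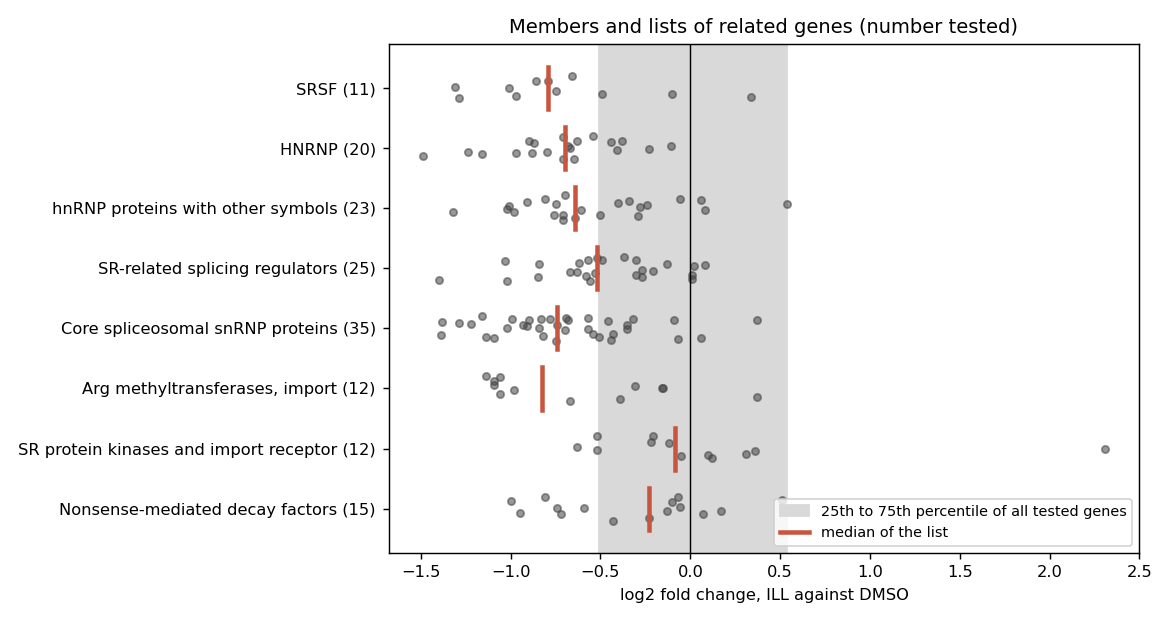
Each point is the log2 fold change of 1 tested gene between ILL and DMSO, in rows for the SRSF and HNRNP genes and 6 lists of related genes, with vertical jitter for display. Red bars mark the list medians, from -0.82 for the list of methyltransferases, PRMT5 partners and import receptors to -0.08 for that of SR protein kinases. The grey band runs from -0.51 to 0.54, the middle of all tested genes.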

How the data were processed

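RNA-seq of HCCC9810 cells was analysed in 3 control and 3 ILL libraries, grouped from the sample titles. The authors deposited raw counts per gene symbol, and FPKM values that equal count divided by gene length and library total in 12758 of 12758 genes checked within 0.1%. Per the labels, GRCh38 and DESeq2 were used. The aligner, counting program and strand setting are not given in the sources used here.

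Counts were filtered with filterByExpr, scaled by TMM and tested with edgeR 4.0.16 in R 4.3.3, by the quasi-likelihood test with Benjamini-Hochberg adjustment over 13066 genes. The biological coefficient of variation was 0.0717. Replicates differed beyond Poisson sampling (chi-square over its degrees of freedom, 5.09 to 11.5), and each counted as 1 sample. Ratios and sums were tested by exact permutation with scipy 1.17.1. The fit was tested on simulated data.

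In each family, genes that passed at a mean of at least 1 CPM were named from both ends of the fold changes, 4 from each, with the 3 highest in control FPKM. Other members appear by pair ratio, range or where few fell outside a count, the last chosen after their values were seen. In each list of related genes at most 2 were named at each end. The members, lists and pairs were chosen with earlier results of these data known. Alternatives were DESeq2 1.42.0 (size factors or Wald test), library size only, no filter or at least 10 counts per library, a replicate block, each library left out, and limma 3.58.1 on log2 of FPKM plus 1 or plus 0.1.

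Promoter windows came from RefSeq on GRCh38.p14 and transcripts, exon overlaps and pseudogenes from GENCODE release 29. Shares of exon bases refer to all GENCODE exons of a gene, which can differ from the exons that were counted. SRSF2, HNRNPA1 and HNRNPCL3 have no window here. The result of 1 marker gene is not reported here.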

Additional observations from a re-analysis of the deposited data

How the results depend on the processing

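The counts of SRSF and HNRNP genes called higher, lower and DEG stayed within 1.5 times their values under all 15 alternatives, and 17 of 18 named members changed neither in sign nor in passing an adjusted p of 0.05. The DEG cutoff was less stable: SRSF3 lost its DEG call in 4 alternatives, and SRSF1 and HNRNPD passed it with library size as the sole scaling (-1.04 each) and with limma on FPKM (-1.02 to -1.04), HNRNPD also without ILL replicate 2. Leaving out each library gave 9 to 10 SRSF and 19 HNRNP genes lower, 2 to 3 SRSF DEGs, 3 to 4 HNRNP DEGs, and summed levels of -0.85 to -0.81 and -0.78 to -0.77 on the log2 scale. The exception among the named members was SRSF5, which fell past the threshold in 5 alternatives. These were library size only (-0.17), without control replicate 1 (-0.14, adjusted p = 0.0433 in edgeR) and limma on FPKM (-0.16 to -0.17). HNRNPLL, outside the named members, also passed with library size only and with limma on filtered FPKM, where all 20 tested HNRNP genes were lower. The cause was not tested. Log2 ratios moved by at most 0.08.

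With library size as the sole scaling, the median of all genes was -0.0702 and the members' median -0.78 in place of -0.71, and the share of DEGs that were higher was 47.4% in place of 52.4%. limma on log2 of FPKM plus 1 with a filter tested 10571 genes and called 668 higher and 923 lower DEGs. With FPKM plus 0.1 and the same filter it called 909 and 1247. The main fit called 1635 and 1485 among 13066 genes.

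Same-numbered libraries did not deviate together, with correlations of 0.0107, -0.0218 and -0.0179, so no pairing by number was detected. The correlations weigh all tested genes alike and cannot exclude a pairing. With a replicate block, 9 SRSF and 19 HNRNP genes were lower, and 4669 higher and 4768 lower genes were called in all, against 4726 and 4821.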
